A study of Homo sapiens and Mus musculus with 56 samples.

Results

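The genes described here are the aminoacyl-tRNA synthetases, a family of 35 genes of which 19 encode the cytosolic enzymes and 16 the mitochondrial ones. They were chosen by symbol from a fixed list of family names, which holds no aspartyl-tRNA synthetase, and each gene was read by the probe set annotated to that symbol alone that was brightest on average within a cell model. With a probe set of their own on the arrays, they are 32 of 19775 human and 35 of 18193 mouse genes. In the 4 human lines 17 cytosolic and 15 mitochondrial members were measured, because MARS1, QARS1 and TARS2 had no human probe set carrying that symbol alone. In the mouse cells all 19 and all 16 were measured.

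The study treated leukaemia cells with EPZ004777, which blocks the H3K79 methyltransferase DOT1L, with MI-2-2, which keeps menin from binding KMT2A (MLL), with the pair of compounds together, or with the solvent DMSO. RS4;11 and SEM, B-precursor leukaemia lines that carry a KMT2A-AFF1 fusion, and REH, a B-precursor line without a KMT2A fusion, received 3 µM EPZ004777, 10 µM MI-2-2 or both for 6 days. MOLM-13, a myeloid line with a KMT2A-MLLT3 fusion, and mouse leukaemic cells transformed with MLL-AF9, grown as a primary culture with human interleukin-6, murine interleukin-3 and murine stem cell factor, received 3 µM of either compound or both for 4 days. The combination was read as holding both compounds at their single doses. SEM was grown in IMDM and the other lines and the mouse cells in RPMI medium, so the amino acids supplied differed between SEM and the rest. Each human model is 1 established line. Total RNA was amplified and hybridised to 56 arrays in 20 groups of 3, except that RS4;11 had 2 DMSO arrays and SEM had 2 arrays each for DMSO, MI-2-2 and the combination.

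Aminoacyl-tRNA synthetases attach an amino acid to its matching transfer RNA, the step that sets which amino acid a codon brings into a protein. The cytosolic enzymes serve the ribosomes of the cytosol and the mitochondrial enzymes, also encoded in the nucleus and mostly by separate genes, serve the ribosomes of the mitochondrion. Genes for several of the cytosolic enzymes are known targets of ATF4, a transcription factor of the amino acid and unfolded protein responses that binds amino acid response elements near their start sites.

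The short stretches below are shown because the core of that element, TGATGNAA on either strand (TTNCATCA on the other), was found more often in windows of the cytosolic than of the mitochondrial genes. Promoter windows from RefSeq on GRCh38.p14, from 250 bases before to 50 after a start, were found for 30 of the 35 genes, in 39 windows, and none was held for AARS2, LARS1, VARS1, VARS2 or YARS1. The core was present in 7 of 21 cytosolic windows (33.3%), in 1 of 18 mitochondrial windows (5.56%) and in 1270 of all 35116 windows (3.62%). Capitals mark the match and each sequence runs in the direction of transcription.
AARS1: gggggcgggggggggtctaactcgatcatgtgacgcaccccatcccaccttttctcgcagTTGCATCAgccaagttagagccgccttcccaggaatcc
CARS1: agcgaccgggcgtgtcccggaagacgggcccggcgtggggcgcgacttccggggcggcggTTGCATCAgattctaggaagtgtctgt
GARS1: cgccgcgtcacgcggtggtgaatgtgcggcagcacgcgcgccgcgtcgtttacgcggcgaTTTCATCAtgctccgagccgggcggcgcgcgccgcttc
IARS1: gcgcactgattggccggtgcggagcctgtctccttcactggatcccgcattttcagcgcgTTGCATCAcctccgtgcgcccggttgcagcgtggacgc
MARS1: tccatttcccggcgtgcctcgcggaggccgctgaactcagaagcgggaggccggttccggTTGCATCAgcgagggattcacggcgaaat
TARS1: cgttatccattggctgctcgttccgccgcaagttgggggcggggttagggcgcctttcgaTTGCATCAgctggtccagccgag
YARS2: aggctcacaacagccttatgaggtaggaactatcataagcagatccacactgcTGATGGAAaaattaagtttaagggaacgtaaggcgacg

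The stretch from AARS1 covers chr16:70289656-70289753 on the minus strand and that from CARS1 chr11:3057399-3057485 on the minus strand. That from GARS1 covers chr7:30594785-30594882 on the plus strand and that from IARS1 chr9:92293673-92293770 on the minus strand. Those from MARS1 and TARS1 cover chr12:57488004-57488092 and chr5:33440907-33440989 on the plus strand. That from YARS2, the mitochondrial tyrosyl enzyme and the single mitochondrial gene among them, covers chr12:32756057-32756147 on the minus strand. NARS1 also holds a match, which is named only. WARS1 and SARS1, which gave some of the largest changes below, had no match in their windows. The palindrome CACGTG, an E-box core, was present in 1 of 21 cytosolic windows (4.76%, IARS1) and in 7.26% of all windows. It was present in 4 of 18 mitochondrial windows (22.2%, of CARS2, EARS2 and MARS2). The EARS2 windows with a match overlap and share the same site, which is counted in each. These matches describe the letters of the windows only.

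Values are log2 intensities, a change is the difference of group means on that scale with its standard error from the limma fit of that cell model, and a call means an adjusted p (Benjamini-Hochberg) under 0.05 over all genes tested in the model (13368 to 14212). The labels describe the replicates as biological but do not say how the cultures were separated, so p-values measure the spread between these samples. Overlap of arrays between groups was read for the members only, with no share over all genes. Groups of 2 or 3 arrays can lie apart by chance. RMA gives the arrays a common distribution, so a change is relative to the other genes, and fewer expressing cells and less RNA per cell cannot be told apart. Array medians lay at 6.18 to 6.25 in MOLM-13 and at 5.54 to 5.66 in the other human lines, and levels were therefore not compared across models. Of 7 B-precursor markers with a probe set, 7 were above percentile 40 on all arrays of RS4;11 and of SEM and 6 on those of REH, and the same held for 7 of 8 myeloid markers in MOLM-13 and all 8 in the mouse cells. Markers of the other lineage also passed, 4 of 8 myeloid markers in RS4;11 and in SEM, 3 of 8 in REH, and 4 of 7 B-precursor markers in MOLM-13 and 3 of 7 in the mouse cells.

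**Figure D1:**
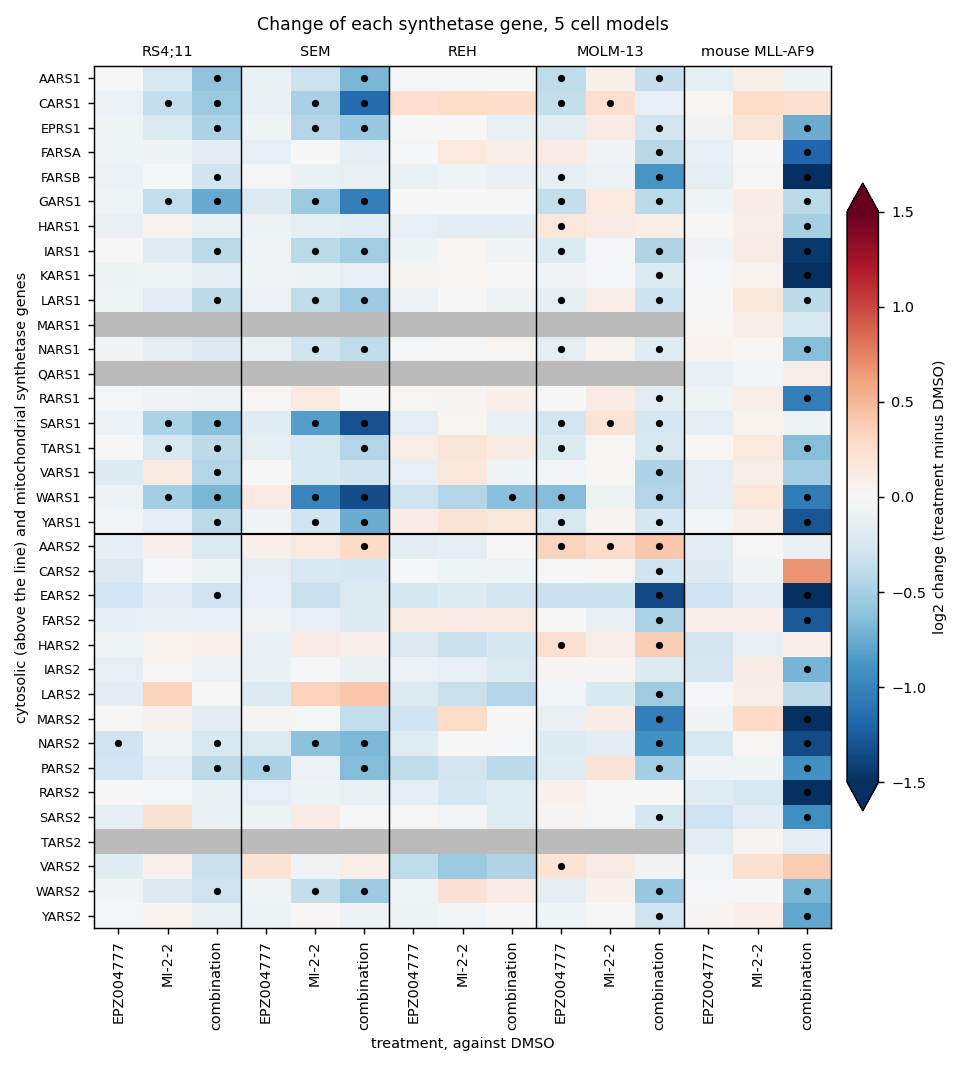
Heat map of the log2 change against DMSO of the 35 synthetase genes (down the side, cytosolic above mitochondrial) in the 15 comparisons of treatment and cell model (columns). Colour gives the log2 change and saturates beyond 1.5 in either direction, black dots mark genes called at an adjusted p under 0.05, and grey cells are the genes without a human probe set of their own. Calls cluster in the cytosolic class in RS4;11 and SEM, and in both classes under the combination in MOLM-13 and the mouse cells.

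Across the 15 comparisons with DMSO, WARS1, the tryptophanyl enzyme, was called lower in 8 and in all 5 cell models. GARS1, which encodes both the cytosolic and the mitochondrial glycyl enzyme, was called lower in 7. SARS1 (serine) was called lower in 6 and higher in 1, CARS1 (cysteine) lower in 5 and higher in 1, and IARS1 (isoleucine), YARS1 (tyrosine), TARS1 (threonine) and LARS1 (leucine) lower in 6 each. Among mitochondrial members NARS2 (asparagine) was called lower in 6, PARS2 (proline) and WARS2 (tryptophan) in 5 and EARS2 (glutamate) in 3. AARS2 (alanine) was called higher in 4 and HARS2 (histidine) in 2. The other probe set of AARS2 changed by -0.10 in SEM and -0.15 in MOLM-13 with the combination. Comparisons within a model share their DMSO arrays, so these tallies are not of independent tests. Shares of all genes called are given for each model below. MARS1 (methionine) and QARS1 (glutamine), measured in the mouse cells alone, were called in none of 3.

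In SEM the combination lowered the cytosolic class and left most of the mitochondrial class without a call. It lowered 11 of 17 cytosolic members (64.7%; median change of the 17, -0.52) and 3 of 15 mitochondrial members (median -0.11), with 1 mitochondrial member higher, where 15.2% of all genes were called lower and 14.4% higher. WARS1, SARS1, CARS1 and GARS1 fell by more than any other member. MI-2-2 alone lowered 9 cytosolic members (52.9%; median -0.30) and 2 mitochondrial ones, where 8.48% of all genes were called lower. EPZ004777 alone lowered no cytosolic member by limma, also at an unadjusted p under 0.05, and 1 mitochondrial member, where 4.07% of all genes were called lower. None of the members called lower in SEM passed when the actin 3' over 5' signal, which nearly coincides with the treatments, entered the fit, although some estimates, such as that of NARS2, kept their size.

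WARS1 read 11.15 and 11.21 on the DMSO arrays of SEM, 11.48, 11.16 and 11.26 with EPZ004777, 10.08 and 10.30 with MI-2-2, and under the combination 9.84 and 9.87. The MI-2-2 and combination arrays all lay below the DMSO arrays, and the EPZ004777 arrays overlapped them. The change was -0.99 ± 0.12 with MI-2-2 (adjusted p = 0.00112) and -1.33 ± 0.12 with the combination, a 2.51-fold lower level (adjusted p = 0.000117). SARS1, the seryl enzyme, read 12.33 and 12.29 with DMSO, 12.16, 12.06 and 12.16 with EPZ004777, 11.31 and 11.64 with MI-2-2, and under the combination 10.99 and 11.01. All treated arrays lay below the DMSO arrays, the combination arrays lowest. The combination changed it by -1.31 ± 0.11 (adjusted p = 8.14e-05). CARS1, the cysteinyl enzyme, read 11.35 and 11.31 with DMSO, 11.19, 11.23 and 11.22 with EPZ004777, 10.72 and 10.98 with MI-2-2, and under the combination 10.18 and 10.17. Its MI-2-2 arrays stood between the DMSO and combination arrays, with no overlap on either side. The change of CARS1 was -0.48 ± 0.09 with MI-2-2 (adjusted p = 0.00834) and -1.15 ± 0.09 with the combination (adjusted p = 6.04e-05), and the combination differed from MI-2-2 alone by -0.67 ± 0.09 (adjusted p = 0.00552). GARS1 read 12.08 and 12.20 with DMSO, 12.01, 11.85 and 11.93 with EPZ004777, 11.43 and 11.73 with MI-2-2, and under the combination 11.12 and 11.11. Its change with the combination was -1.02 ± 0.11 (adjusted p = 0.000319), and the combination arrays lay below all the others.

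A second tier of cytosolic enzymes fell by smaller amounts in SEM. YARS1 read 12.08 and 12.05 with DMSO, 11.70 and 11.83 with MI-2-2, and under the combination 11.27 and 11.38 (change with the combination -0.74 ± 0.08). IARS1 read 12.51 and 12.52 with DMSO, 12.04 and 12.17 with MI-2-2, and 11.988 and 11.999 under the combination (-0.52 ± 0.07). LARS1 read 11.78 and 11.79, 11.33 and 11.48, and 11.21 and 11.27 in the same order (-0.54 ± 0.07). None of these 3 genes had a treated array of MI-2-2 or the combination at a DMSO level. TARS1 read 12.59 and 12.58 with DMSO and 12.12 and 12.19 with the combination (-0.44 ± 0.07, adjusted p = 0.0028), and its change with MI-2-2, -0.23 ± 0.07, was not called. AARS1 (alanine) changed by -0.68, EPRS1, which carries both the glutamyl and the prolyl enzyme in 1 protein, by -0.57, and NARS1 (asparagine) by -0.38 with the combination, all called. The 6 members without a call were VARS1 (valine, -0.30), HARS1 (histidine, -0.15), FARSA and FARSB, the subunits of the phenylalanyl enzyme (-0.14 and -0.11), KARS1, which encodes both lysyl enzymes (-0.12), and RARS1 (arginine, 0.01). HARS1 read 10.32 and 10.33 with DMSO and 10.21 and 10.13 with the combination, close together beside the drop in WARS1 and SARS1. YARS1 was read by a probe set that can cross-hybridise, and its other probe set gave 0.00 with MI-2-2 and -0.45 with the combination in SEM, so the size of its fall depends on the probe set.

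Among mitochondrial members of SEM, NARS2 read 11.38 and 11.36 with DMSO, 11.17, 11.16 and 11.12 with EPZ004777, 10.82 and 10.70 with MI-2-2, and under the combination 10.68 and 10.71. All treated arrays lay below the DMSO arrays. The change was -0.61 ± 0.07 with MI-2-2 (adjusted p = 0.000962) and -0.68 ± 0.07 with the combination (adjusted p = 0.000269), whereas that with EPZ004777, -0.22 ± 0.06, was not called (adjusted p = 0.072). PARS2, the prolyl enzyme, read 7.44 and 7.46 with DMSO, 7.13, 6.91 and 6.87 with EPZ004777, 7.21 and 7.51 with MI-2-2, and under the combination 6.82 and 6.78. Its EPZ004777 and combination arrays lay below the DMSO arrays, and its MI-2-2 arrays overlapped them. PARS2 was thereby the member called with EPZ004777 (-0.48 ± 0.11, adjusted p = 0.0353), a call lost when any of 6 of the 9 arrays was left out: combination 1 or 3, EPZ004777 2 or 3, DMSO 2 or 3. WARS2 read 9.92 and 9.77 with DMSO, 9.46 and 9.51 with MI-2-2, and under the combination 9.33 and 9.29 (-0.54 ± 0.09, adjusted p = 0.0032), with no overlap. AARS2, the mitochondrial alanyl enzyme, read 8.98 and 9.11 with DMSO, 9.14 and 9.21 with MI-2-2, and under the combination 9.37 and 9.31, the 1 member called higher (0.30 ± 0.08, adjusted p = 0.0239). LARS2, the mitochondrial leucyl enzyme, lay higher by more and without overlap, but with a larger error (0.41 ± 0.17), and was not called. The call of AARS2 was lost without combination 1 (adjusted p = 0.111), combination 3 (0.066) or DMSO 2 (0.145), and its other probe set changed in the opposite direction.

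The signal of the actin probes near the 3' end over that near the 5' end, a measure of RNA length, moved with treatment in SEM: the log2 difference ranged from 1.83 to 1.93 on the 4 arrays given MI-2-2, alone or combined, and from 2.32 to 2.48 on the other 5. The same difference for the GAPDH probes did not separate these arrays, at 0.311 to 0.386 on the 4 and 0.282 to 0.371 on the other 5. With that difference as a covariate the count of cytosolic members called lower was 0 under MI-2-2 and 0 under the combination by limma. The estimate for WARS1 under the combination became -0.43 ± 0.53, that for SARS1 -0.72 ± 0.54 and that for CARS1 -0.94 ± 0.48 (adjusted p = 0.744). The estimate for NARS2 did not shrink, at -0.82 ± 0.38 under the combination and -0.76 ± 0.39 under MI-2-2 (adjusted p = 0.697 and 0.828). The difference nearly coincides with the groups in SEM, so the fit could not separate them and the standard errors grew. Markers of myeloid cells also moved: the median change of the 5 past the filter was 1.49 with MI-2-2 and 2.35 with the combination. With the combination 5 of 5 were higher, where 14.4% of all genes were called higher. The filter asks for 2 arrays only, so a marker could pass it through the treated arrays where it is high. Their part in the change of the synthetases was not tested.

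**Figure D2:**
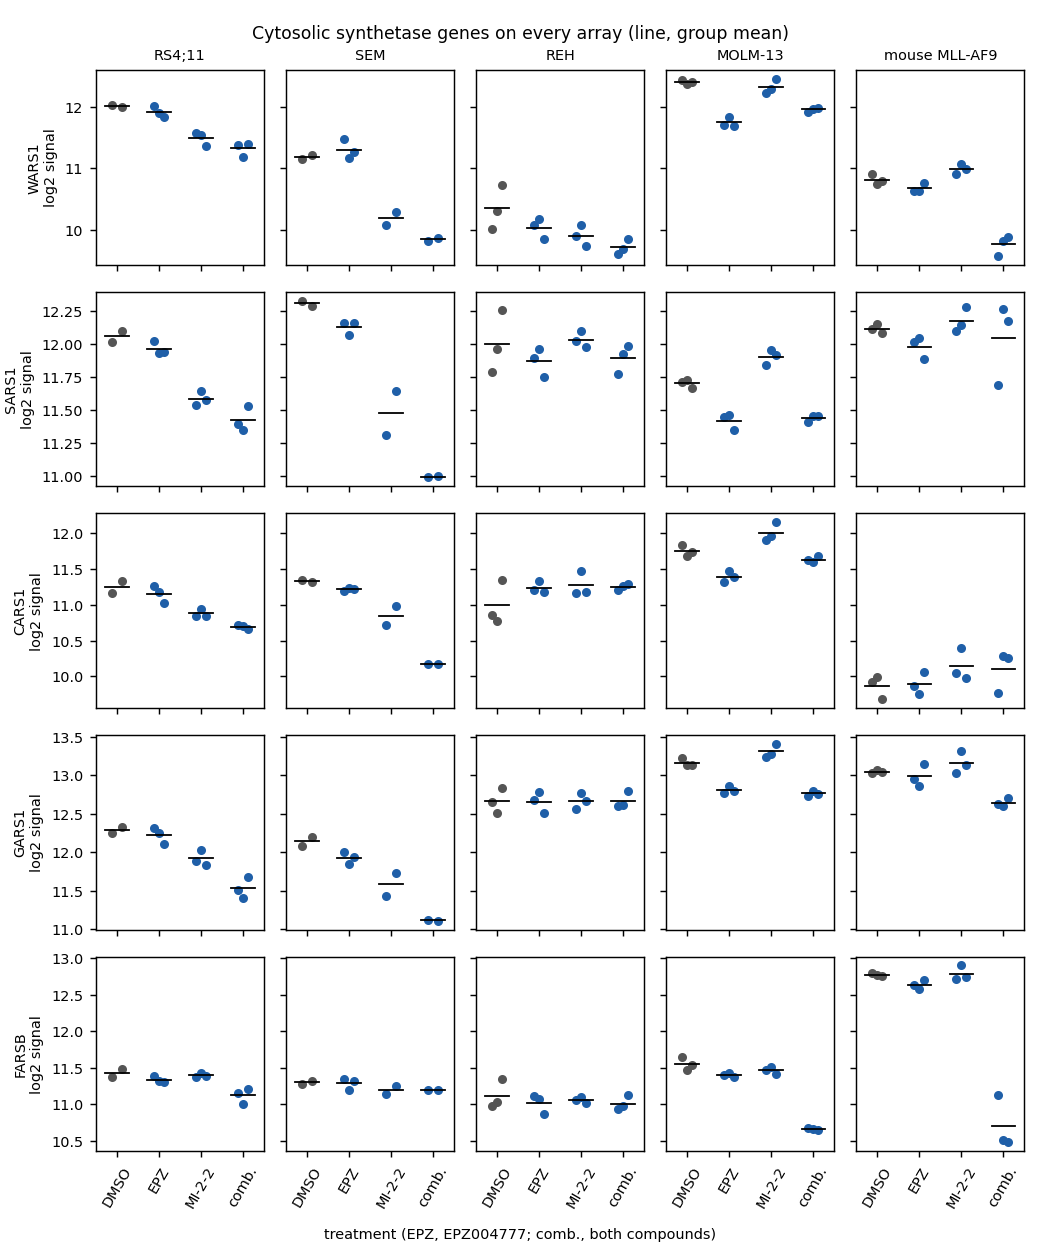
Log2 intensity of WARS1, SARS1, CARS1, GARS1 and FARSB on every array, one panel per gene and cell model, with the 4 treatments on the horizontal axis. Points are arrays and the short line is the group mean. WARS1 in SEM falls from 11.15 and 11.21 with DMSO to 9.84 and 9.87 with the combination, whereas FARSB falls in MOLM-13 and the mouse cells.

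RS4;11, the other KMT2A-AFF1 line, showed the cytosolic fall at a smaller size. The combination lowered 12 of 17 cytosolic members (70.6%; median -0.39) and 4 of 15 mitochondrial members (26.7%; median -0.12), where 12.3% of all genes were called lower and 11.2% higher. MI-2-2 alone lowered 5 cytosolic members (29.4%; median -0.17) and no mitochondrial member by limma (1 lower and 1 higher at an unadjusted p under 0.05), where 6.67% of all genes were called lower. EPZ004777 alone lowered no cytosolic member, also at an unadjusted p under 0.05, and 1 mitochondrial member, NARS2, where 2.04% of all genes were called lower. Of the 12 cytosolic members called with the combination in RS4;11, 10 (83.3%) were also among the 11 called in SEM (90.9% of those), namely AARS1, CARS1, EPRS1, GARS1, IARS1, LARS1, SARS1, TARS1, WARS1 and YARS1. Both sets come from the same 17 measured members, so part of this overlap was bound to occur.

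WARS1 in RS4;11 read 12.02 and 11.99 with DMSO, 12.01, 11.90 and 11.83 with EPZ004777, 11.58, 11.53 and 11.37 with MI-2-2, and under the combination 11.39, 11.19 and 11.40. The MI-2-2 and combination arrays lay below the DMSO arrays and the EPZ004777 arrays overlapped them, the same order as in SEM. The change was -0.51 ± 0.09 with MI-2-2 (adjusted p = 0.00425) and -0.68 ± 0.09 with the combination (adjusted p = 0.000307). GARS1 read 12.25 and 12.32 with DMSO, 12.32, 12.24 and 12.11 with EPZ004777, 11.89, 12.03 and 11.84 with MI-2-2, and under the combination 11.51, 11.40 and 11.68. Its combination arrays lay below every other array, and the change of -0.75 ± 0.10 was the largest of the family in this line (adjusted p = 0.000244). SARS1 read 12.01 and 12.10 with DMSO, 12.02, 11.94 and 11.94 with EPZ004777, 11.54, 11.65 and 11.57 with MI-2-2, and under the combination 11.39, 11.35 and 11.53 (-0.63 ± 0.07, adjusted p = 0.000108). CARS1 read 11.17 and 11.33, 11.27, 11.18 and 11.02, 10.85, 10.95 and 10.85, and 10.71, 10.70 and 10.66 in the same order (-0.55 ± 0.08, adjusted p = 0.000636). In both genes the EPZ004777 arrays overlapped the DMSO arrays and the other 2 treatments did not.

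TARS1 read 12.35 and 12.42 with DMSO, 12.10, 12.21 and 12.13 with MI-2-2, and under the combination 11.99, 11.95 and 12.04, and was called with both (-0.24 ± 0.07, adjusted p = 0.0389, and -0.39 ± 0.07, adjusted p = 0.00161). IARS1 read 12.44 and 12.51 with DMSO and 12.08, 12.10 and 12.05 with the combination (-0.40 ± 0.07). YARS1 read 12.14 and 12.20 with DMSO and 11.79, 11.75 and 11.79 with the combination, and LARS1 11.98 and 12.01 against 11.63, 11.60 and 11.59 (-0.39 ± 0.07 for each). These 3 genes were not called with MI-2-2. All their MI-2-2 arrays lay below the 2 DMSO arrays, which with so few arrays can occur without an effect. AARS1 (-0.60), EPRS1 (-0.48), VARS1 (-0.43) and FARSB (-0.30) were also called with the combination, and NARS1 (-0.22), FARSA (-0.15), KARS1 (-0.14), HARS1 (-0.11) and RARS1 (-0.08) were not. NARS2 read 10.98 and 11.02 with DMSO, 10.81, 10.71 and 10.58 with EPZ004777, 10.93, 11.03 and 10.88 with MI-2-2, and under the combination 10.79, 10.75 and 10.76. NARS2 lay below DMSO on all EPZ004777 arrays and overlapped it on the MI-2-2 arrays, the reverse of the order in WARS1, SARS1, GARS1 and CARS1. Its change was -0.30 ± 0.08 with EPZ004777 (adjusted p = 0.0432) and -0.24 ± 0.08 with the combination (adjusted p = 0.0471), and EPZ004777 differed from MI-2-2 by -0.25 ± 0.07 (adjusted p = 0.0317), a contrast in which 7.57% of all genes were called lower. WARS2 (-0.31 ± 0.07), PARS2 (-0.40 ± 0.13) and EARS2 (-0.31 ± 0.10) were the other mitochondrial members called with the combination.

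The single-array omissions moved the smaller counts of RS4;11. The 5 cytosolic calls with MI-2-2 became 3 without EPZ004777 2, MI-2-2 1, MI-2-2 3 or DMSO 2, and 2 without DMSO 3. The 4 mitochondrial calls with the combination became 2 without combination 1, MI-2-2 1, MI-2-2 2 or DMSO 2, 1 without combination 2, EPZ004777 2 or MI-2-2 3, and 0 without DMSO 3. The call of NARS2 with EPZ004777 was lost in 9 of 11 omissions, all but those of EPZ004777 1, which gave 2 calls, and MI-2-2 2, with an adjusted p of up to 0.253. In SEM the 9 cytosolic calls with MI-2-2 became 5 without DMSO 2 and 4 without DMSO 3, and the 2 mitochondrial ones became 1 without MI-2-2 1, MI-2-2 3, DMSO 2 or DMSO 3. Myeloid markers moved in RS4;11 too, with a median change of 0.74 with MI-2-2 and 1.38 with the combination. With the combination 3 of 5 were higher, where 11.2% of all genes were called higher. The limit of the filter given for SEM holds here as well, and the part of these markers in the result was not tested.

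The contrasts between treatments place the single compounds in order. In RS4;11 the combination lay lower than EPZ004777 in 11 cytosolic members (9.45% of all genes) and lower than MI-2-2 in 6 (3.94% of all genes), the latter being EPRS1, FARSB, GARS1, IARS1, VARS1 and YARS1. The count of 6 was 0 without combination 2 or MI-2-2 2, 1 without MI-2-2 1, and 3 without combination 1, combination 3, EPZ004777 2, MI-2-2 3, DMSO 2 or DMSO 3. In SEM the combination lay lower than EPZ004777 in 11 (11.5% of all genes) and lower than MI-2-2 in 3, CARS1, SARS1 and YARS1 (1.95% of all genes). That count became 1 without combination 1, combination 3 or MI-2-2 3, and 5 without MI-2-2 1. EPZ004777, at 3 µM, left 5 cytosolic members of RS4;11 higher than MI-2-2 at 10 µM (8.62% of all genes) and 8 of SEM (9.01% of all genes, 3 without MI-2-2 1), with WARS1 in SEM 1.11 ± 0.11 higher (adjusted p = 0.000403). The 5 became 2 without EPZ004777 1, EPZ004777 2 or MI-2-2 1, and 3 without MI-2-2 3. No member departed from additivity of the 2 single effects by limma in either line, although 2 cytosolic members of RS4;11 and 3 of SEM passed an unadjusted p under 0.05 (1.92% and 0.969% of all genes were called in either direction in that contrast).

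In REH, the line without a KMT2A fusion, almost no synthetase was called. EPZ004777 and MI-2-2 called no synthetase of either class by limma, where 4.11% and 1.34% of all genes were called in either direction. At an unadjusted p under 0.05 no cytosolic and 1 mitochondrial member passed with EPZ004777, and 1 cytosolic and 3 mitochondrial members with MI-2-2. The combination lowered 1 cytosolic member, WARS1, of 17 and no mitochondrial member of 15 (2 at an unadjusted p under 0.05), where 3.11% of all genes were called lower. The median change of the cytosolic class was -0.01, 0.03 and -0.01 in the order EPZ004777, MI-2-2, combination, and that of the mitochondrial class -0.17, -0.12 and -0.18.

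WARS1 in REH read 10.02, 10.31 and 10.73 with DMSO, 10.08, 10.19 and 9.86 with EPZ004777, 9.91, 10.08 and 9.74 with MI-2-2, and under the combination 9.62, 9.71 and 9.86. The DMSO arrays were widely spread, and the MI-2-2 arrays overlapped them while the combination arrays lay below them (-0.62 ± 0.16, adjusted p = 0.036). That call was lost without combination 1, 2 or 3, EPZ004777 1, MI-2-2 1 or DMSO 3. CARS1, which fell in the other B-precursor lines, read 10.85, 10.78 and 11.35 with DMSO and 11.21, 11.26 and 11.29 with the combination, a change of 0.26 ± 0.14 that was not called (adjusted p = 0.277). SARS1 read 11.79, 11.96 and 12.26 with DMSO and 11.77, 11.93 and 11.98 with the combination, and GARS1 12.66, 12.51 and 12.84 against 12.60, 12.61 and 12.79. In these 3 genes the groups overlapped. The REH DMSO arrays 1 and 3 stood apart: their actin 3' over 5' differences were 3.11 and 3.65 against 2.36 to 2.87 on the other 10 arrays, and without both of them no member was called with the combination.

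A direct test compared the treatment effects of the KMT2A-AFF1 lines with those of REH, at equal doses and times, in 1 fit of their 32 arrays. The mean effect in RS4;11 and SEM was lower than that in REH for 6 of 17 cytosolic members with MI-2-2 (5.71% of all genes) and for 9 with the combination (10.7% of all genes), and for 2 of 15 mitochondrial members with each. With EPZ004777 no member passed by limma (1 cytosolic member at an unadjusted p under 0.05), where 2.76% of all genes were called lower. CARS1 differed most, by -0.71 ± 0.14 with MI-2-2 (adjusted p = 0.00122) and -1.12 ± 0.14 with the combination (adjusted p = 1.9e-06). GARS1 differed by -0.46 ± 0.13 and -0.89 ± 0.13, SARS1 by -0.68 ± 0.12 and -0.86 ± 0.12, and YARS1 by -0.43 ± 0.11 and -0.74 ± 0.11 with MI-2-2 and the combination. TARS1, IARS1, NARS2 and WARS2 passed with both treatments, and AARS1, LARS1 and NARS1 with the combination. WARS1, which fell in REH as well, did not pass (-0.31 ± 0.17, adjusted p = 0.237, and -0.38 ± 0.17, adjusted p = 0.114). With the actin 3' over 5' difference as a covariate WARS1 passed with both treatments (-0.53 ± 0.16 and -0.49 ± 0.14), and the MI-2-2 count became 10. The MI-2-2 count of 6 was 10 without REH DMSO 3, and the EPZ004777 count of 0 was 3 without that array. The lines also differ in origin and, for SEM, in medium, which this contrast cannot tell apart from the fusion.

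**Figure D3:**
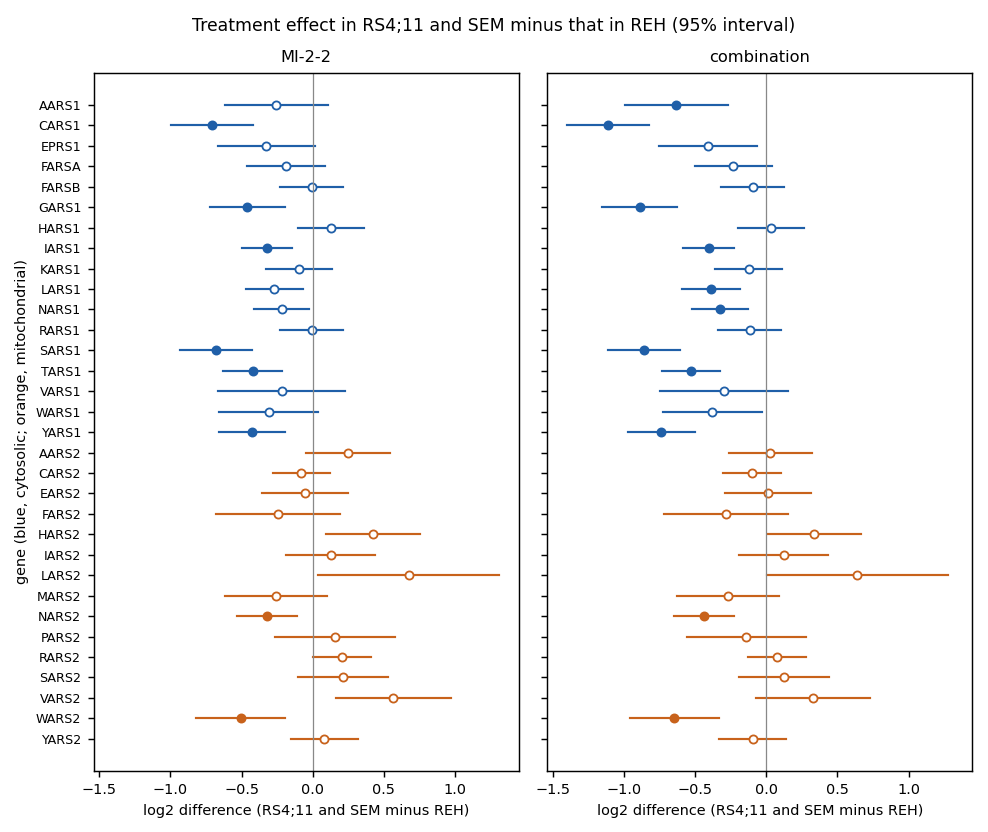
Difference between the mean treatment effect in RS4;11 and SEM and the effect in REH, in log2 units, for each measured synthetase under MI-2-2 and under the combination. Bars are 95% intervals, filled points are called at an adjusted p under 0.05, and values left of zero mean a lower effect in the KMT2A-AFF1 lines. CARS1 lies farthest left, at -0.71 and -1.12, and FARSB lies near zero at -0.01 and -0.10.

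In MOLM-13, the myeloid line, EPZ004777 was the single compound that lowered cytosolic synthetases. It lowered 11 of 17 (64.7%; median -0.16) and raised 1, HARS1, where 12.5% of all genes were called lower and 15.2% higher. It lowered no mitochondrial member by limma (2 at an unadjusted p under 0.05) and raised 3, AARS2, HARS2 and VARS2. MI-2-2 at 3 µM lowered no member of either class (0 cytosolic and 1 mitochondrial at an unadjusted p under 0.05), where 8.35% of all genes were called lower, and raised CARS1, SARS1 and AARS2, where 10.2% were called higher. The combination lowered 15 cytosolic members (88.2%; median -0.29) and 10 of 15 mitochondrial members (66.7%; median -0.30) and raised 2 mitochondrial ones, where 25.5% of all genes were called lower and 23.4% higher.

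WARS1 in MOLM-13 read 12.42, 12.36 and 12.39 with DMSO, 11.71, 11.84 and 11.69 with EPZ004777, 12.21, 12.28 and 12.45 with MI-2-2, and under the combination 11.92, 11.97 and 11.97. The EPZ004777 arrays were the lowest and the combination arrays stood between them and DMSO. The change was -0.65 ± 0.06 with EPZ004777 (adjusted p = 3.38e-05) and -0.44 ± 0.06 with the combination (adjusted p = 0.000164), and the combination lay 0.21 ± 0.06 higher than EPZ004777 (adjusted p = 0.0276). CARS1 read 11.84, 11.69 and 11.73 with DMSO, 11.32, 11.47 and 11.38 with EPZ004777, 11.90, 11.96 and 12.15 with MI-2-2, and under the combination 11.62, 11.59 and 11.68. It lay below DMSO with EPZ004777 (-0.36 ± 0.07, adjusted p = 0.00354) and above it with MI-2-2 (0.25 ± 0.07, adjusted p = 0.0328), without overlap in either case. With the combination the change of -0.12 ± 0.07 was not called (adjusted p = 0.189). SARS1 followed the same single effects, reading 11.72, 11.73 and 11.66 with DMSO, 11.45, 11.46 and 11.35 with EPZ004777, 11.84, 11.95 and 11.91 with MI-2-2, and under the combination 11.41, 11.46 and 11.46. Its combination arrays lay at the EPZ004777 level (-0.26 ± 0.05 against DMSO, adjusted p = 0.001).

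GARS1 read 13.22, 13.13 and 13.14 with DMSO, 12.77, 12.87 and 12.79 with EPZ004777, and 12.73, 12.80 and 12.76 with the combination (-0.35 ± 0.05 and -0.40 ± 0.05). TARS1 read 13.39, 13.32 and 13.36 with DMSO, 13.12, 13.19 and 13.14 with EPZ004777, and 13.09, 13.12 and 13.14 with the combination (-0.21 ± 0.04 and -0.24 ± 0.04). YARS1 read 12.58, 12.45 and 12.59, 12.30, 12.36 and 12.24, and 12.25, 12.28 and 12.34 in the same order (-0.24 ± 0.06 and -0.25 ± 0.06). In these 3 genes both treated groups lay below DMSO and overlapped each other. IARS1 read 13.24, 13.07 and 13.17 with DMSO, 13.00, 12.98 and 12.90 with EPZ004777, and 12.75, 12.63 and 12.75 with the combination. LARS1 read 12.44, 12.51 and 12.46, 12.30, 12.35 and 12.32, and 12.11, 12.20 and 12.12 in the same order. For both, the combination arrays lay below the EPZ004777 arrays, and the difference between them was called (-0.25 ± 0.06 for IARS1 and -0.18 ± 0.05 for LARS1). LARS1 was read here by a probe set that can cross-hybridise and differs from that used in the other human lines. It changed by -0.32 with the combination, where the other probe sets gave -0.73, -0.58 and -0.995, so the size of its fall depends on the probe set. HARS1 read 10.52, 10.51 and 10.46 with DMSO and 10.67, 10.69 and 10.64 with EPZ004777, a rise of 0.17 ± 0.04 (adjusted p = 0.0153). The count of 11 cytosolic members lower with EPZ004777 was 5 without EPZ004777 3 and 6 without DMSO 1 or DMSO 3.

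Several members of MOLM-13 fell further with both compounds than with either one. FARSB and MARS2 are described here because of their values, a choice made after seeing them. FARSB, the beta subunit of the phenylalanyl enzyme, read 11.64, 11.47 and 11.53 with DMSO, 11.40, 11.42 and 11.37 with EPZ004777, 11.47, 11.51 and 11.41 with MI-2-2, and under the combination 10.68, 10.65 and 10.64. The combination arrays lay far below every other array, and the EPZ004777 arrays slightly below DMSO (-0.15, adjusted p = 0.0487). The change with the combination was -0.89 ± 0.05 (adjusted p = 1.62e-07), and it differed from the sum of the single changes by -0.65 ± 0.07 (adjusted p = 0.000446). MARS2, the mitochondrial methionyl enzyme, read 10.09, 9.97 and 9.98 with DMSO, 9.86, 10.04 and 9.81 with EPZ004777, 10.23, 10.13 and 10.02 with MI-2-2, and under the combination 9.02, 8.91 and 9.02. Both single treatments overlapped DMSO and the combination did not (-1.03 ± 0.07, adjusted p = 8.73e-07). EARS2, the mitochondrial glutamyl enzyme, read 9.64, 9.17 and 9.26 with DMSO, 8.98, 9.14 and 8.94 with EPZ004777, 8.96, 9.02 and 9.07 with MI-2-2, and under the combination 7.88, 7.98 and 8.16. All its arrays of the single compounds lay below DMSO, with changes of -0.34 ± 0.11 for each that were not called. Its fall of -1.35 ± 0.11 with the combination was the largest of the family in this line (adjusted p = 3.34e-06). NARS2 read 10.31, 10.02 and 10.08 with DMSO, 9.89, 9.95 and 9.99 with EPZ004777, 9.93, 10.09 and 9.91 with MI-2-2, and under the combination 9.26, 9.22 and 9.19, whose arrays lay below all others (-0.91 ± 0.08, adjusted p = 3.34e-06).

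The departure from additivity was called lower for 4 cytosolic members of MOLM-13, FARSA (-0.49), FARSB, LARS1 (-0.28) and RARS1 (-0.29), and for 5 mitochondrial members, EARS2 (-0.67), MARS2 (-1.03), NARS2 (-0.56), VARS2 (-0.38) and WARS2 (-0.49), where 8.7% of all genes were called lower. Compared with EPZ004777 alone, the combination was lower in 7 cytosolic and 11 mitochondrial members and higher in 2 cytosolic members, CARS1 and WARS1, where 18.6% of all genes were called lower and 14.4% higher. The 9 cytosolic calls of that contrast became 5 without combination 1 or EPZ004777 3 and 4 without combination 3 or EPZ004777 1. Compared with MI-2-2 the combination was lower in 16 cytosolic and 10 mitochondrial members (21.5% of all genes), and EPZ004777 was lower than MI-2-2, both at 3 µM, in 10 cytosolic members (9.23% of all genes).

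Of the other mitochondrial members, WARS2 read 10.00, 9.76 and 9.85 with DMSO and 9.16, 9.43 and 9.31 with the combination (-0.57 ± 0.08), and PARS2 8.63, 8.16 and 8.43 against 7.62, 7.95 and 8.12 (-0.51 ± 0.16). LARS2 (-0.53), FARS2 (-0.47), CARS2 (-0.30), YARS2 (-0.30) and SARS2 (-0.25) were also called lower. AARS2 read 9.50, 9.40 and 9.30 with DMSO, 9.69, 9.83 and 9.68 with EPZ004777, 9.50, 9.72 and 9.78 with MI-2-2, and under the combination 9.83, 9.82 and 9.77. It was called higher with all 3 treatments (0.33 ± 0.08, 0.27 ± 0.08 and 0.41 ± 0.08), with overlap on the MI-2-2 arrays, but its other probe set changed by -0.15 with the combination. HARS2 read 10.47, 10.36 and 10.33 with DMSO, 10.63, 10.60 and 10.64 with EPZ004777, and 10.74, 10.70 and 10.82 with the combination, higher without overlap in both (0.24 ± 0.07 and 0.37 ± 0.07).

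**Figure D4:**
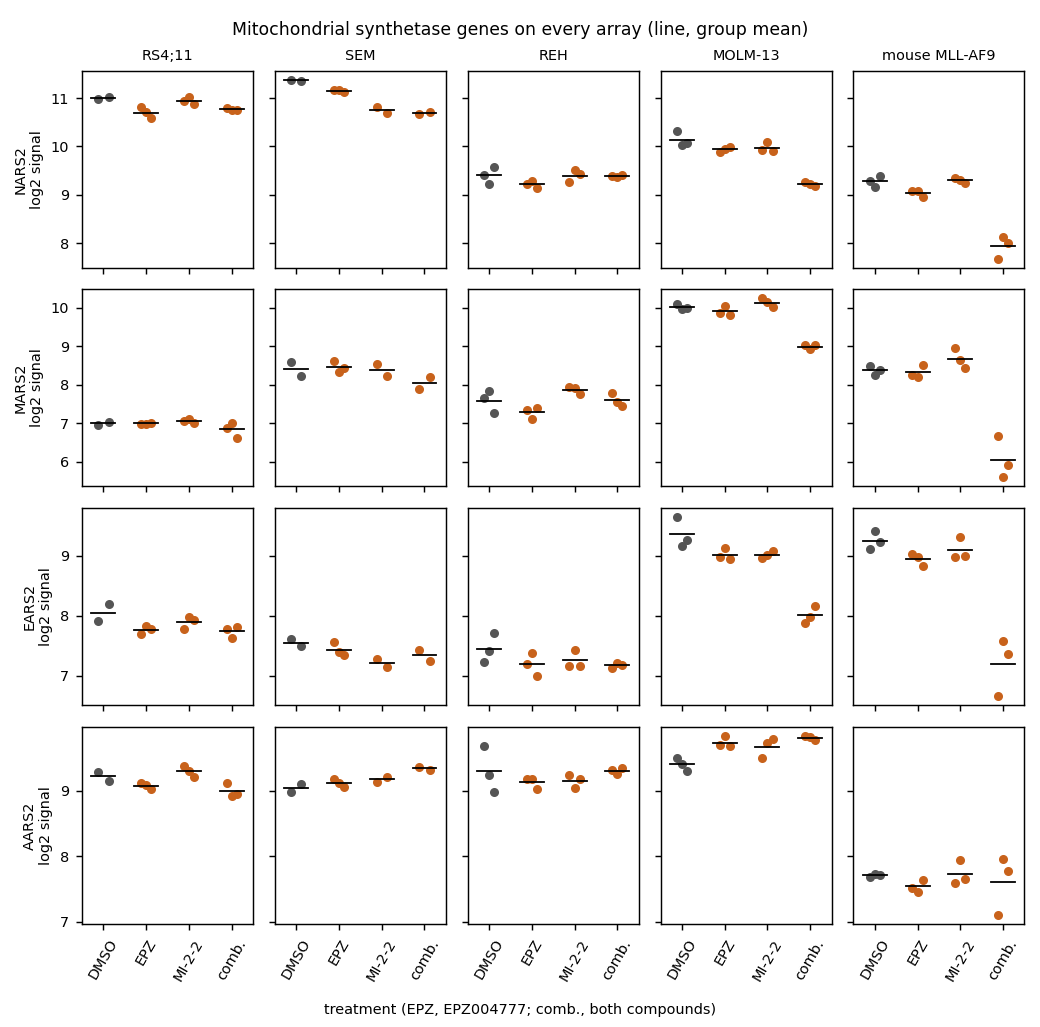
Log2 intensity of NARS2, MARS2, EARS2 and AARS2 on every array, one panel per gene and cell model, with the 4 treatments on the horizontal axis. Points are arrays and the short line is the group mean. In MOLM-13 and the mouse cells NARS2, MARS2 and EARS2 fall on the combination arrays, MARS2 in the mouse cells from 8.25 to 8.49 with DMSO to 5.59 to 6.66, whereas AARS2 in MOLM-13 lies higher.

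In the mouse MLL-AF9 cells neither compound alone called a synthetase of either class, by limma or at an unadjusted p under 0.05, where 5.6% of all genes were called in either direction with EPZ004777 and 5.26% with MI-2-2. All groups of the fit share 1 estimate of the spread per gene, and the combination arrays differed among themselves, as described below. Their spread enters the error of the single compounds, so a small effect could go uncalled. Rars2, for example, read 10.81 to 10.89 with DMSO, 10.61 to 10.65 with MI-2-2 and 8.83 to 9.96 with the combination. The combination lowered 13 of 19 cytosolic members (68.4%; median -0.64) and 10 of 16 mitochondrial members (62.5%; median -0.74) and raised none, where 36.2% of all genes were called lower and 28.5% higher and the median change of all genes was -0.10. Farsb, Kars and Iars among the cytosolic members and Mars2, Ears2 and Rars2 among the mitochondrial ones fell most. The departure from additivity was called lower for 13 cytosolic and 7 mitochondrial members, where 25.9% of all genes were called lower. Of the 15 cytosolic members lower with the combination in MOLM-13, 12 (80%) were among the 13 lower in the mouse cells (92.3% of those), and 8 of 10 mitochondrial members (80%) were shared on both sides. Only 17 cytosolic and 15 mitochondrial members were measured in both models, and most were called in each. Much of this overlap was therefore bound to occur.

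Farsb, Kars and Mars2 are described because of the size of their change, a choice made after seeing it. Farsb read 12.79, 12.77 and 12.76 with DMSO, 12.63, 12.58 and 12.70 with EPZ004777, 12.71, 12.90 and 12.74 with MI-2-2, and under the combination 11.12, 10.51 and 10.48. The combination arrays lay far below all others, and the change of -2.07 ± 0.15 was a 4.2-fold lower level (adjusted p = 7.2e-07). Kars, the lysyl enzyme of both compartments, read 12.50, 12.42 and 12.37 with DMSO and 11.12, 10.61 and 10.44 with the combination (-1.71 ± 0.15, adjusted p = 2.24e-06). Iars read 12.20, 12.25 and 12.30 with DMSO and 11.27, 10.44 and 10.68 with the combination (-1.45 ± 0.18, adjusted p = 4.57e-05). Combination arrays 2 and 3 were lower than array 1 in these 3 genes. Wars read 10.90, 10.75 and 10.80 with DMSO, 10.63, 10.64 and 10.76 with EPZ004777, 10.90, 11.06 and 10.98 with MI-2-2, and under the combination 9.59, 9.83 and 9.90. Here array 1 was the lowest, and the change was -1.05 ± 0.10 (adjusted p = 6.06e-06). Yars read 11.04, 11.09 and 11.03 with DMSO and 10.00, 9.63 and 9.68 with the combination (-1.28 ± 0.12, adjusted p = 5.09e-06).

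Smaller falls were called for Tars, which read 12.12, 12.27 and 12.24 with DMSO and 11.34, 11.64 and 11.73 with the combination (-0.64 ± 0.12), and for Hars, which read 13.05, 13.09 and 13.03 against 12.53, 12.44 and 12.71 (-0.50 ± 0.12). Gars read 13.03, 13.07 and 13.04 with DMSO and 12.63, 12.60 and 12.70 with the combination (-0.40 ± 0.10), and Lars 12.46, 12.49 and 12.40 against 11.76, 12.10 and 12.31 (-0.39 ± 0.13). The treated arrays lay below DMSO in all 4 genes. Farsa (-1.19), Rars (-1.03), Eprs (-0.75) and Nars (-0.64) were also called. The 6 cytosolic members without a call include Sars and Cars, which were among the largest falls in SEM. Sars read 12.11, 12.15 and 12.08 with DMSO and 11.69, 12.26 and 12.18 with the combination (-0.07 ± 0.14), and Cars 9.92, 9.99 and 9.69 against 9.77, 10.28 and 10.26 (0.24 ± 0.17). Qars read 12.83, 12.91 and 12.93 with DMSO and 12.66, 13.13 and 13.17 with the combination (0.10 ± 0.14), and Mars1 12.41, 12.35 and 12.39 against 11.85, 12.37 and 12.25 (-0.23 ± 0.13). In all 4 the combination arrays overlapped DMSO, with array 1 the lowest of the 3. Array 1 lay below all DMSO arrays for Sars, Qars and Mars1 and among them for Cars. Arrays 2 and 3 had the raised actin and GAPDH 3' over 5' differences described below, which limits the contrast with SEM. The other members without a call were Aars (-0.07) and Vars (-0.50).

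Among mitochondrial members of the mouse cells, Mars2 read 8.49, 8.25 and 8.37 with DMSO, 8.25, 8.19 and 8.51 with EPZ004777, 8.95, 8.64 and 8.43 with MI-2-2, and under the combination 6.66, 5.59 and 5.91. The combination arrays lay far below the rest, a change of -2.32 ± 0.24, or 4.98-fold lower (adjusted p = 9.44e-06). Ears2 read 9.12, 9.41 and 9.22 with DMSO, 9.03, 8.97 and 8.82 with EPZ004777, 8.98 to 9.30 with MI-2-2, and under the combination 6.65, 7.58 and 7.35 (-2.06 ± 0.21, adjusted p = 7.71e-06). Nars2 read 9.29, 9.15 and 9.38 with DMSO, 9.07, 9.08 and 8.95 with EPZ004777, 9.34, 9.31 and 9.25 with MI-2-2, and under the combination 7.68, 8.13 and 7.99 (-1.34 ± 0.12, adjusted p = 2.82e-06). Both had all EPZ004777 arrays below the DMSO arrays, without a call. Pars2 read 8.08, 8.37 and 8.21 with DMSO and 7.36, 6.89 and 7.69 with the combination (-0.91 ± 0.19), and Wars2 8.04, 8.13 and 8.03 against 7.20, 7.16 and 7.78 (-0.69 ± 0.15). Rars2 (-1.58), Fars2 (-1.26), Sars2 (-0.92), Yars2 (-0.78) and Iars2 (-0.70) were called as well. Aars2, which lay higher in MOLM-13, read 7.68, 7.72 and 7.71 with DMSO and 7.10, 7.95 and 7.77 with the combination (-0.10 ± 0.19), and Hars2 read 8.94, 9.27 and 9.15 against 8.64, 9.52 and 9.42 (0.07 ± 0.20). Neither was called, and Cars2 (0.67 ± 0.37), Vars2 (0.38), Lars2 (-0.39) and Tars2 (-0.14) were not called either. The other probe sets of Cars2 gave -0.75 and -1.12, opposite in sign to the one used. Over the series 69 of 279 cases of a gene, model and treatment with several probe sets past the filter had opposite signs among them.

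The mouse combination arrays differed among themselves. Arrays 2 and 3 had actin 3' over 5' differences of 1.12 and 1.99, against 0.377 to 0.628 on the other 10, and GAPDH differences of 1.504 and 2.047, against 0.44 to 0.654. Array 1 correlated with the other combination arrays at a median of 0.955. With arrays 2 and 3 left out, the median change with the combination was -0.83 for cytosolic and -0.88 for mitochondrial members. Array 1 alone thus also gave negative medians, but it is then 1 array assumed to vary like the other groups. The median of all genes in that fit is not given here.

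**Figure D5:**
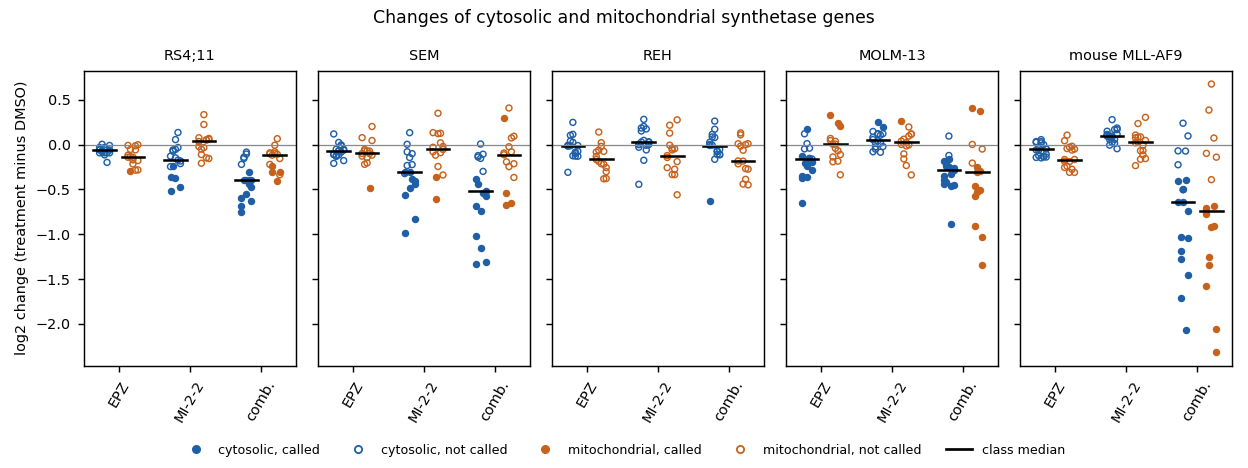
Log2 change against DMSO of every measured synthetase, cytosolic beside mitochondrial, for each cell model and treatment. Points are genes, filled where called at an adjusted p under 0.05, and the line is the median of the class. Under the combination the medians of the cytosolic and mitochondrial classes are -0.39 and -0.12 in RS4;11, -0.52 and -0.11 in SEM, -0.29 and -0.30 in MOLM-13, and -0.64 and -0.74 in the mouse cells.

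Comparing the 2 enzymes for the same amino acid holds the substrate equal. FARSA and FARSB, subunits of 1 enzyme, were each paired with FARS2, so phenylalanine counts as 2 pairs below in every model. EPRS1 entered no pair. Of 13 such pairs measured in the human lines, the cytosolic change with the combination was below the mitochondrial one in 11 in RS4;11, 9 in SEM, 4 in REH and 7 in MOLM-13, and the mouse cells had 9 of 15. Only the cytosolic enzyme of the pair was called lower in 8 pairs of RS4;11, 6 of SEM, 1 of REH, 4 of MOLM-13 and 3 of the mouse cells. Only the mitochondrial one was called lower in 1, 0, 0, 1 and 2 pairs, in the same order. With EPZ004777 in MOLM-13 the cytosolic change was the lower in 11 of 13 pairs, with the cytosolic enzyme alone called in 9 and the mitochondrial enzyme alone in none. In SEM both enzymes fell for tryptophan (WARS1 and WARS2) and for asparagine (NARS1 and NARS2).

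Genes of the amino acid response, a list of 32 ATF4 targets and regulators, were followed beside the synthetases. The limit on RNA length given for SEM holds for this list too, and its values with the actin covariate are not given. In RS4;11 23 of 32 fell with MI-2-2 (median -0.44; 6.67% of all genes) and 29 with the combination (median -0.73; 12.3% of all genes), including CHAC1, a glutathione-degrading enzyme (-2.07), TRIB3, a pseudokinase induced by ATF4 (-1.94), SESN2 (-1.83) and STC2 (-1.75). In SEM 17 of 31 fell with MI-2-2 (median -0.39; 8.48% of all genes) and 28 with the combination (median -0.93; 15.2% of all genes), with CHAC1 at -3.49, ATF5 at -3.30, the cystine transporter gene SLC7A11 at -2.85 and STC2 at -2.75. In MOLM-13 27 of 32 fell with EPZ004777 (median -0.45; 12.5% of all genes) and 25 with the combination, with 3 higher (median -0.43; 25.5% of all genes lower and 23.4% higher). With MI-2-2 in that line 3 fell and 4 rose, near the shares of all genes (8.35% and 10.2%). In REH 2 of 30, TRIB3 and DDIT3, fell with EPZ004777 and with the combination (TRIB3, -1.06 and -1.15), and 1, CTH, rose with MI-2-2. Of all genes, 4.11% with EPZ004777 and 1.34% with MI-2-2 were called in either direction, and 3.11% were called lower with the combination. Counts this small lie near those shares. In the mouse cells the list did not move one way under the combination: 15 of 32 fell, among them the transporter gene Slc1a4 (-3.28) and Aldh1l2 (-2.86), and 5 rose, Atf3 by 2.65, where 36.2% of all genes were called lower and 28.5% higher. The transcript of ATF4 itself was called lower with the combination in RS4;11, SEM and the mouse cells by limma. It changed by -0.26 ± 0.06 in RS4;11 (adjusted p = 0.00758), -0.36 ± 0.06 in SEM (adjusted p = 0.0043) and -0.25 ± 0.09 in the mouse cells (adjusted p = 0.0235). In REH it changed by 0.06 ± 0.07 and in MOLM-13 by -0.03 ± 0.04, and neither was called.

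The promoter stretches shown above can be set beside these changes. Of the 14 cytosolic genes with both a promoter window and a human probe set, 6 held the core in a window. In SEM all 6 were called lower with the combination (median -0.60), as were 3 of the 8 without it (EPRS1, SARS1 and WARS1; median of the 8, -0.15). In RS4;11 the counts were 5 of 6 (median -0.48) and 4 of 8 (median -0.23). In MOLM-13 they were 5 of 6 (median -0.29) and 7 of 8 (median -0.27). In the mouse cells, grouped by the human windows, they were 4 of 7 (median -0.40) and 7 of 9 (median -1.03), so the genes without the core fell further there. These counts are small and were not tested, and those of SEM carry the limit on RNA length given for that line.

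Genes that work with the synthetases were read against the share of all genes called lower with the combination, 36.2% in the mouse cells, 25.5% in MOLM-13, 15.2% in SEM and 12.3% in RS4;11. No difference between models was tested for these lists, and the counts below for cytosolic translation factors in RS4;11 and SEM, for mitochondrial translation in SEM and for partners in RS4;11 lie near that share. The partners list holds scaffold proteins of the multi-synthetase complex, the tRNA exporter XPOT, amidotransferase subunits and related factors. With the combination 1 of 7 fell and 1 rose in RS4;11 (DTD1, -0.59, and QRSL1, 0.58), 3 of 7 fell in SEM (XPOT, -0.61), none of 7 passed in REH (1 at an unadjusted p under 0.05), 6 of 7 fell in MOLM-13 (median -0.53; MTFMT, which formylates the mitochondrial initiator methionine, -0.72), and 8 of 9 fell in the mouse cells (median -1.19; Eef1e1, -3.43, and Aimp2, -2.51, both components of the multi-synthetase complex). Of the cytosolic translation factors, 2 of 18 fell in RS4;11, 2 fell and 2 rose in SEM, 11 of 18 fell in MOLM-13 (EIF2B3, a subunit of the guanine exchange factor eIF2B, -1.34) and 14 of 17 in the mouse cells (Eif2b3, -3.08). Of the mitochondrial translation genes, 6 of 23 fell and 1 rose in RS4;11, 3 fell and 2 rose in SEM (median 0.00), 17 of 23 fell in MOLM-13 (median -0.30), as did 18 of 23 in the mouse cells (median -1.04; Mrpl12, a mitochondrial ribosomal protein, -2.47). In REH no gene of these 2 lists passed with the combination by limma, and 1 translation factor and 5 mitochondrial translation genes did at an unadjusted p under 0.05.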

How the data were processed

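Expression was measured on Affymetrix arrays, 44 human and 12 mouse. The deposited values are log2 intensities per probe set, which the authors made with RMA in the R package affy (R 3.0.2, per the submitters' processing notes). No array carries reads, so the number of arrays limits the precision.

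From these values, probe sets with 1 gene symbol were kept (41091 of 54675 human and 34945 of 45101 mouse), those with several or none and control probe sets were left out, and each gene was read by the probe set with the highest mean. Probe sets above percentile 40 of an array on at least 2 arrays were tested with limma 3.58.1 in R 4.3.3, in 1 fit per cell model with 1 coefficient per group and Benjamini-Hochberg adjustment over all genes of the fit. The 32 arrays of RS4;11, SEM and REH entered 1 further fit for the difference between lines. Errors of a change are standard errors of the fit, and 95% intervals come from the same fit. Replicate numbers did not pair the samples: the median correlation of same-numbered deviations was -0.05 in RS4;11, -0.11 in SEM, -0.09 in REH, 0.10 in the mouse cells and -0.03 in MOLM-13. Alternatives covered the filter, normalization, probe set choice, array weights, RNA length, the arrays in the fit, the replicate block and each array left out.

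The members and gene lists, and the arrays named as standing apart, were chosen with earlier results of these data known. All 35 members were accounted for. Array values were given for the 8 cytosolic and 5 mitochondrial members called most often, the 3 cytosolic members called least often and members called higher in 2 or more comparisons, and from other lists up to 4 called genes and ATF4. Further members were added after their values were seen and are named as such. Promoter windows came from RefSeq. pandas 2.3.3 and matplotlib 3.10.9 made the tables and plots.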

Additional observations from a re-analysis of the deposited data

Results flagged for a closer look

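The effect of a treatment differed between the KMT2A-AFF1 lines and REH, by a test of the difference itself, for 11 members described above. With MI-2-2 the effect averaged over RS4;11 and SEM differed from that in REH by -0.71 for CARS1, -0.68 for SARS1, -0.46 for GARS1, -0.43 for YARS1, -0.42 for TARS1 and -0.32 for IARS1 among cytosolic members. The difference was -0.51 for WARS2 and -0.32 for NARS2 among mitochondrial members. With the combination it was -1.12 for CARS1, -0.89 for GARS1, -0.86 for SARS1, -0.74 for YARS1, -0.53 for TARS1, -0.41 for IARS1, -0.39 for LARS1, -0.65 for WARS2 and -0.44 for NARS2, and also -0.63 for AARS1 and -0.33 for NARS1.

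The calls differed in how far they rested on single arrays. GARS1 with MI-2-2 was lost without SEM MI-2-2 1 (adjusted p = 0.0515), NARS2 with MI-2-2 was lost in 11 of 32 omissions and WARS2 with MI-2-2 in 5. The value of YARS1 with MI-2-2 became 0.26 when read by its other probe set. The REH DMSO arrays 1 and 3, which enter all of these differences, had the highest actin 3' over 5' differences among the REH arrays. With that difference as a covariate the values for CARS1 were -0.93 with MI-2-2 and -1.23 with the combination, and 10 and 11 cytosolic members were called lower.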

How the results depend on the processing

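Of 2247 values of named members recomputed under the alternatives, 2107 kept their direction and side of the threshold, 41 newly passed, 92 no longer passed and 7 reversed. With each array left out in turn, 3875 of 4032 did so, 27 newly passed and 130 no longer passed, and 53 of 79 calls of named members held in every omission. Counts below are members called, and the cause of each move was not tested.

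With the actin 3' over 5' difference as a covariate, SEM lost its calls: MI-2-2 cytosolic 9 became 0 (median -0.059), mitochondrial 2 became 0 (median 0.19), combination cytosolic 11 became 0 (median -0.25), mitochondrial 3 became 0, and EPZ004777 mitochondrial 1 became 0. The SEM contrasts of the combination with EPZ004777 (11) and of EPZ004777 with MI-2-2 (8) became 0 too. GARS1 and YARS1 with MI-2-2 reversed to 0.27 and 0.21. In RS4;11 the EPZ004777 mitochondrial 1 became 0, the combination mitochondrial 4 became 1 and the combination against MI-2-2 6 became 2. In REH the cytosolic medians became 0.17, 0.27 and 0.18 with EPZ004777, MI-2-2 and the combination, the mitochondrial medians 0.0016, 0.12 and -0.0028, the EPZ004777 mitochondrial 0 became 1 and the combination cytosolic 1 became 0. In MOLM-13 the EPZ004777 cytosolic 11 became 5, the MI-2-2 mitochondrial 0 became 1, the combination against MI-2-2 16 became 10 and EPZ004777 against MI-2-2 10 became 5. In the mouse cells the EPZ004777 mitochondrial median became -0.10 and the combination medians -0.82 (cytosolic) and -0.99 (mitochondrial). The line difference became 2 with EPZ004777 (from 0) and 10 with MI-2-2 (from 6).

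In 1 fit of 44 human arrays, the RS4;11 combination mitochondrial 4 became 0, the SEM EPZ004777 mitochondrial 1 became 0 and MI-2-2 mitochondrial 2 became 1, the REH MI-2-2 cytosolic 0 became 1 and mitochondrial 0 became 3, the REH combination mitochondrial 0 became 1, the MOLM-13 mitochondrial 0 became 1 with each single compound, the combination against EPZ004777 9 became 4 and the MOLM-13 additivity contrast 4 became 2. Without REH DMSO 1 and 3 the REH mitochondrial medians became -0.0080, 0.014 and 0.061 with EPZ004777, MI-2-2 and the combination, the combination cytosolic 1 became 0 and the EPZ004777 line difference 0 became 1. Without mouse combination 2 and 3 the mouse EPZ004777 and MI-2-2 mitochondrial 0 became 1 each, EPZ004777 against MI-2-2 0 became 1, the combination medians became -0.83 and -0.88, and Hars2 reversed to -0.48.

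Array weights did not converge in the mouse cells and were not used there. In the other fits they gave 2 for the RS4;11 EPZ004777 mitochondrial 1, 1 for the MI-2-2 mitochondrial 0 and 8 for EPZ004777 against MI-2-2 (5). They gave 2 for the SEM EPZ004777 mitochondrial 1, a REH EPZ004777 mitochondrial median of -0.042, 1 for the REH combination against EPZ004777 (0), 2 for the MOLM-13 MI-2-2 mitochondrial 0, 10 for the MOLM-13 additivity contrast (4) and 1 for the EPZ004777 line difference (0). The mean of all probe sets gave 1 for the RS4;11 EPZ004777 cytosolic 0, 2 for the combination mitochondrial 4, 1 for the additivity contrast (0), a REH combination mitochondrial median of -0.017 and 1 for REH EPZ004777 against MI-2-2 (0). Probe sets without cross-hybridising identifiers gave 1 for the RS4;11 additivity contrast (0) and 1 for the SEM combination against MI-2-2 (3). They reversed YARS1 to 0.002 with MI-2-2 in SEM, 0.056 with the combination in MOLM-13 and 0.26 in the MI-2-2 line difference, and Qars to -0.29 in the mouse combination. Without a filter, the RS4;11 EPZ004777 mitochondrial 1 became 0, the combination mitochondrial 4 became 1 and the combination against MI-2-2 6 became 3. Quantile normalization again gave 0 for the RS4;11 EPZ004777 mitochondrial 1 and 1 for the MOLM-13 mitochondrial 0 with each single compound.

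With the replicate number as a block, the RS4;11 EPZ004777 mitochondrial 1 became 0, MI-2-2 cytosolic 5 became 3, combination mitochondrial 4 became 2, combination against MI-2-2 6 became 3 and EPZ004777 against MI-2-2 5 became 3. In SEM the EPZ004777 mitochondrial 1 became 0, MI-2-2 cytosolic 9 became 4, combination against MI-2-2 3 became 1 and EPZ004777 against MI-2-2 8 became 4, and in REH the combination cytosolic 1 became 0.

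Leaving out each array in turn gave these ranges. RS4;11: EPZ004777 mitochondrial 0 to 2, MI-2-2 cytosolic 2 to 5, combination mitochondrial 0 to 3, combination against MI-2-2 0 to 6, EPZ004777 against MI-2-2 2 to 5. SEM: EPZ004777 mitochondrial 0 to 1 (median -0.18 to -0.029), MI-2-2 cytosolic 4 to 9 and mitochondrial 1 to 3, combination against MI-2-2 1 to 5, EPZ004777 against MI-2-2 3 to 8, additivity 0 to 1. REH: EPZ004777 mitochondrial 0 to 1, MI-2-2 mitochondrial 0 to 2 (median -0.18 to 0.043), combination cytosolic 0 to 1 and mitochondrial 0 to 2. MOLM-13: EPZ004777 cytosolic 5 to 11 and mitochondrial 0 to 2, MI-2-2 mitochondrial 0 to 1, combination against EPZ004777 4 to 9. Mouse: MI-2-2 mitochondrial 0 to 1 (median -0.064 to 0.066), combination medians -0.70 to -0.53 (cytosolic) and -0.89 to -0.57 (mitochondrial), EPZ004777 against MI-2-2 0 to 1. The line difference was 0 to 3 with EPZ004777 and 5 to 10 with MI-2-2. In a group of 2 arrays, the one left is assumed to vary like the other groups.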
